A study of Rattus norvegicus with 6 samples.

Results

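Over the distal end of rat chromosome 4, most sites of open chromatin were lower in INS-1 cells with the Med14 S983A mutation than in WT cells, before and after cAMP stimulation. The region was taken as every merged ATAC-seq peak that starts between bases 159257677 and 180278318 of chromosome 4 in the rn6 build, a stretch of 21.02 Mb. It holds 1447 of the 220490 merged peaks of the series, called members here, and the rest of chromosome 4 holds 12808. The region was chosen by the genotype difference itself: runs of neighbouring peaks between these bounds had lower FPKM in Med14 S983A than in WT in each treatment. The genotype difference is therefore given as a description of the region, without a test, and nothing is supported by it. The call of each merged peak in each library's own peak list separates 400 members called in all 6 libraries (27.6%, against 39.3% of all merged peaks) from 1047 called in 1 to 5 of them.

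ATAC-seq maps accessible chromatin by the sites at which the Tn5 transposase can insert sequencing adapters. It was measured in 2 genotypes of INS-1, a line of insulin-secreting tumour cells from the rat that stands in for pancreatic beta cells. WT cells carry the native serine of Med14 and Med14 S983A cells carry an alanine in its place, introduced by CRISPR knock-in with puromycin selection and sorting of single cells. Each genotype gave 1 untreated library (CON), 1 library after 1 h with 10 nM Ex-4 (Exendin-4, a stable agonist of the GLP-1 receptor) and 1 library after 1 h with 10 µM FSK (forskolin, which activates adenylate cyclase directly). A mutant line grown from single cells carries whatever else distinguishes its founder cell, more than 1 mutant line was made, and no source used here names the one that was profiled. With 1 library per condition there is no replicate check, no p-value is given, and every difference compares these libraries.

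Med14 is the scaffold subunit of Mediator, the complex that links transcription factors at enhancers to RNA polymerase II at promoters. GLP-1 receptor agonists and forskolin raise cAMP and activate the kinase PKA, which phosphorylates the factor CREB and, at the mutated serine, Med14. Open chromatin marks promoters and enhancers, and cAMP opens a subset of them within an hour. Reads at a peak depend on how open the site is and on how many copies of that DNA the cells hold. The number of DNA copies was not measured here, so a less open region and a region with fewer copies cannot be told apart.

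The 6 libraries held between 134300000 and 251100000 reads in peaks, as recovered from the steps between the deposited FPKM values. Members called in all 6 libraries had a median of 1086 reads in WT CON and 429.9 in Med14 S983A CON, so counting error was small for most of them. WT FSK was the deepest library, and a merged peak missing from a library's own list is given as 0 FPKM there. A value of 0 thus means that the peak was not called, and the number of zeros moves with depth as well as with the signal. The peaks were not tied to genes, since no annotation of rn6 was used. RefSeq's GRCr8 annotation puts all 49 genes of a list drawn up for this end of the chromosome on chromosome 4. Among them are Iapp, which encodes the amylin that beta cells release with insulin, and the Mediator gene Med21. The list was made for this end, so the match is no result. Their places in rn6 were not read, so no gene is placed in the region here.

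Fewer members were called in the mutant cells. In WT, 918 members were called in CON, 955 in Ex-4 and 1250 in FSK. In Med14 S983A, 490 were called in CON, 533 in Ex-4 and 597 in FSK. Every mutant library thus listed fewer members than any WT library, and the deepest mutant library, FSK, held more reads in peaks than WT CON. Members listed at 0 made up 36.5%, 34% and 13.6% of the region in WT CON, Ex-4 and FSK, and 66.1%, 63.2% and 58.7% in the mutant libraries in the same order. On the rest of chromosome 4 the same shares were 40.5%, 40.1% and 21.2% in WT and 47%, 42.8% and 35.3% in the mutant libraries. The share at 0 was thus lower in the region than on the rest of the chromosome in the WT libraries and higher in the mutant libraries. These shares are taken over peaks merged from both genotypes. Peaks called in the mutant only, which stand at 0 in WT, made up 4.28% of the region and 12.5% of the rest of chromosome 4. The low WT shares thus follow in part from what chose the region, and nothing is read from them.

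**Figure D1:**
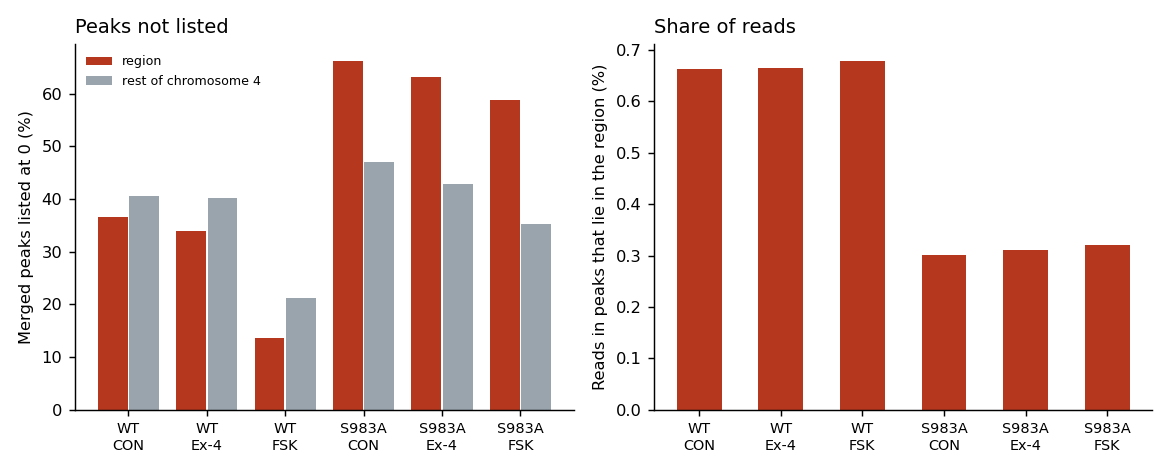
Left, share of merged peaks listed at 0 FPKM (%) in each of the 6 libraries for the region (red) and the rest of chromosome 4 (grey). Right, share of each library's reads in peaks that lies in the region (%), with 1 library per bar and S983A short for Med14 S983A. The 3 mutant libraries hold between 0.301% and 0.321% of their reads in the region, against 0.664% to 0.678% in the WT libraries.

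The region also took a smaller share of the reads in the mutant libraries. It took 0.664% of the reads in peaks in WT CON (95% Wilson interval 0.663% to 0.666%, counting error only), 0.666% in WT Ex-4 and 0.678% in WT FSK. The share was 0.301% (0.3% to 0.302%) in Med14 S983A CON, 0.31% in Ex-4 and 0.321% in FSK. The mutant share was 0.453, 0.466 and 0.474 of the WT share in CON, Ex-4 and FSK. Counting only the members called in all 6 libraries, which leaves out the zeros, these ratios were 0.538, 0.547 and 0.554. The rest of chromosome 4 stayed near 1 in the same comparison, with ratios of 0.976, 0.98 and 0.974.

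Many members were called in WT cells alone. Of the members, 297 (20.5%) were called in all 3 WT libraries and in no mutant library, a pattern that covers 5.52% of all merged peaks. The opposite pattern, all 3 mutant libraries and no WT library, held 16 members (1.11%, against 2.27% of all merged peaks). Members called in at least 1 WT library and in no mutant library numbered 770 (53.2%, against 22.6%). Of these 770, 283 (19.6% of the members, against 9.66% of all merged peaks) appeared in WT FSK only, the deepest library.

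The 297 members seen in the WT genotype only were not all weak. Their median level was 3.93 FPKM in WT CON, and in 40 of them the WT libraries averaged 10 FPKM or more. On the rest of chromosome 4, 75 of 717 peaks with this pattern reached that average, and their median was 3.45 FPKM in WT CON. Strong peaks of this pattern thus occurred outside the region too. They made up a larger share of the 1447 members than of the 12808 merged peaks on the rest of chromosome 4. The region was chosen for low mutant levels, so nothing is read from that share. The strongest of the 297 was chr4:169936009-169936863, with 28.1 FPKM in WT CON, 30.4 in WT Ex-4 and 21.4 in WT FSK, listed at 0 in all 3 mutant libraries. The next were chr4:177885115-177885971, at 26.0, 23.0 and 30.6 FPKM, and chr4:168978910-168979467, at 26.8, 25.7 and 22.2 FPKM in the same WT order. Both were also listed at 0 in the 3 mutant libraries, so each of these sites was a clear peak in one genotype and uncalled in the other.

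Among the 16 members seen in Med14 S983A only, the 3 strongest sat within 1.78 kb of each other, about 11.26 Mb from the start of the region. At chr4:170511985-170512105 the mutant levels were 21.3, 18.4 and 16.2 FPKM in CON, Ex-4 and FSK. At chr4:170513100-170513208 they were 10.8, 12.7 and 12.6 FPKM, and at chr4:170513617-170513761 they were 11.8, 12.0 and 10.1 FPKM. All 3 were listed at 0 in the WT libraries. A member between them, chr4:170512593-170512855, was called in all 6 libraries and was also higher in the mutant cells, at 17.4, 17.7 and 14.8 FPKM in WT and 23.9, 23.3 and 20.1 FPKM in Med14 S983A. Another group of mutant-only members, at chr4:176936091-176936548, chr4:176936758-176937177 and chr4:176949141-176949848, reached 5.85, 3.41 and 11.1 FPKM in mutant CON. These 2 groups were picked out after their values were seen.

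Among the 400 members called in all 6 libraries, where no zero enters, levels were also lower in Med14 S983A. Their median was 12.4, 12.6 and 12.2 FPKM in WT CON, Ex-4 and FSK and 5.87, 5.97 and 5.54 FPKM in the mutant libraries. On the rest of chromosome 4 the medians of such peaks were 8.54, 8.35 and 7.96 FPKM in WT and 7.48, 7.44 and 6.7 FPKM in the mutant libraries. Among peaks called in all 6 libraries, the region's median was thus above that of the rest of the chromosome in WT and below it in the mutant. Such peaks had to be called in the mutant libraries as well. Which members enter these medians thus depends on what chose the region, and nothing is read from this order. On the scale log2(FPKM + 0.5), the median difference of Med14 S983A minus WT over the 400 members was -0.89 in CON, -0.87 in Ex-4 and -0.88 in FSK. The median ratio of FPKM, mutant over WT, was 0.513, 0.526 and 0.52 in the same order. The interquartile range of the members in CON ran from -1.36 to -0.51. On the rest of chromosome 4 the median difference was 0.016 in CON and 0.028 in Ex-4, and in FSK it was 5.2e-05.

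**Figure D2:**
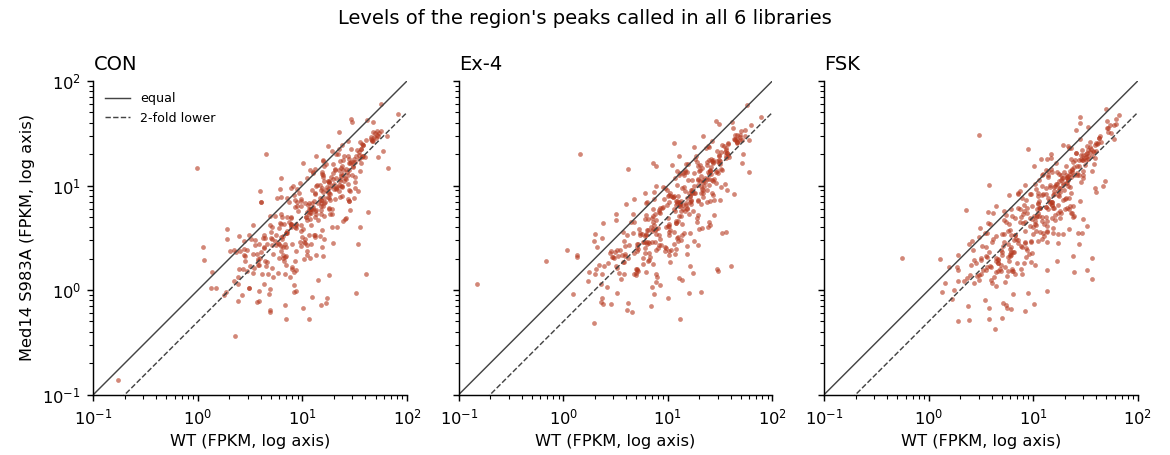
Level of each of the 400 members called in all 6 libraries in WT (horizontal, FPKM, log axis) and Med14 S983A (vertical, FPKM, log axis), 1 point per member and 1 library per axis, in CON, Ex-4 and FSK. The solid line marks equal levels and the dashed line a 2-fold lower mutant level; 355, 356 and 360 of the members lie below equality on the scale of log2(FPKM + 0.5).

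In CON, 164 of the 400 members (41%) were at least 2-fold lower in the mutant, where 10.5% of all tested peaks called in all 6 libraries were. In Ex-4 the count was 161 (40.2%, against 9.6%) and in FSK it was 170 (42.5%, against 11.4%). Members at least 2-fold higher numbered 3 in CON (0.75%, against 4.9%), 6 in Ex-4 (1.5%, against 4.98%) and 5 in FSK (1.25%, against 4.07%). With the members of fewer lists included, provided their mean reached 1 FPKM, 534 of 913 (58.5%) were at least 2-fold lower in CON, against 21.5% of all tested peaks. The same count was 533 (58.4%, against 19.9%) in Ex-4 and 588 (64.4%, against 24.0%) in FSK. Of the 534, 338 were listed at 0 in Med14 S983A CON, so they rest on a call and not on a measured lower level. The minimum mean of 1 FPKM was passed by 913 of the 1447 members, and the weaker members below it were left out of these counts.

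The difference of a given member was much alike in the 3 treatments. The region was chosen for lower mutant levels in each of them, so the counts here follow in part from that choice. Of the 400 members, 344 (86%, against 36.4% of all tested peaks called in all 6) were below 0 in CON, Ex-4 and FSK, 27 were above 0 in all 3, and 29 were mixed. In 130 (32.5%, against 7.7%) the level was at least 2-fold lower in all 3 treatments. The range of a member's 3 differences had a median of 0.24 on the log2 scale. Across the 400 members, Pearson's r was 0.96 between the differences in CON and Ex-4 and 0.93 between those in CON and FSK, given as a description since neighbouring members share their libraries and their region. On the rest of chromosome 4 these values were 0.94 and 0.91.

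The members did not share 1 ratio. In CON, the mutant level was 0.5 to 0.8 of the WT level in 144 members (36%) and 0.25 to 0.5 of it in 134 (33.5%). It was under 0.25 in 54 members, 12 of them under 0.1. It was 0.8 to 1.2 in 45 members (11.2%), the class that held 41.3% of the peaks on the rest of chromosome 4. The 100 members with the highest mean level were the most alike, with a middle range of ratios from 0.49 to 0.672 around a median of 0.584 in CON. Split into 4 groups of 100 by mean FPKM, the members had median differences in CON of -0.78, -1.02, -1.02 and -0.76 from the weakest group to the strongest.

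**Figure D3:**
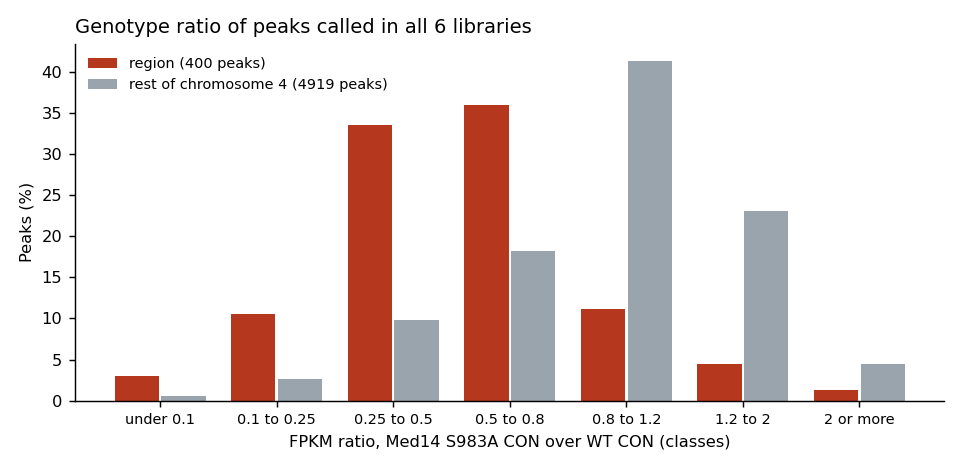
Share of peaks called in all 6 libraries (%) by the class of their FPKM ratio, Med14 S983A CON over WT CON, for the 400 members of the region (red) and 4919 peaks on the rest of chromosome 4 (grey). The region's largest classes are 0.5 to 0.8 and 0.25 to 0.5, with 36% and 33.5% of its members, and the largest class elsewhere is 0.8 to 1.2, with 41.3%.

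The strongest member was chr4:176510289-176510819. Its level was 82.3, 78.3 and 62.3 FPKM in WT CON, Ex-4 and FSK and 47.9, 44.9 and 39.1 FPKM in the mutant, a ratio of 0.582 in CON. The next 3 by level among the lowered members, at chr4:176727570-176728631, chr4:170763032-170764077 and chr4:177222607-177224189, had CON ratios of 0.589, 0.588 and 0.678. In each of these 4 members every mutant library was below every WT library. The second strongest, chr4:159653751-159654440, was different. It stood at 57.0, 57.2 and 49.3 FPKM in WT and 60.8, 58.3 and 54.0 FPKM in Med14 S983A, so the genotypes overlapped and the ratio in CON was 1.07.

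At the members with the largest falls, a strong WT peak stood beside a low mutant level. At chr4:161475323-161476417 the level was 40.5, 40.4 and 32.7 FPKM in WT and 1.44, 1.70 and 1.56 FPKM in the mutant, which is 28.2-fold lower in CON, 23.8-fold in Ex-4 and 21-fold in FSK. The mutant CON value rests on 211 reads, with an exact Poisson interval of 1.25 to 1.64 FPKM. At chr4:179358920-179359661 the WT levels were 32.2, 30.4 and 24.6 FPKM and the mutant levels 0.934, 1.53 and 1.47 FPKM. At chr4:171176220-171176920 they were 17.2, 16.1 and 13.4 FPKM in WT and 0.83, 0.932 and 0.982 FPKM in the mutant. No library of one genotype overlapped the other at any of these 3 sites.

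A few members went the other way. The largest rise was at chr4:161939040-161939530, where WT held 0.983, 1.44 and 3.05 FPKM and Med14 S983A held 14.7, 20.2 and 30.5 FPKM in CON, Ex-4 and FSK, 14.9-fold higher in CON. Its level rose with FSK in both genotypes, by 3.1-fold in WT and 2.08-fold in the mutant. Another member 20.8 kb before it, chr4:161918277-161919546, was also higher in the mutant, at 11.7, 16.4 and 22.4 FPKM against 6.17, 7.14 and 8.89 FPKM. At chr4:180213428-180213761 WT held 4.48, 4.18 and 3.75 FPKM and the mutant 19.9, 14.3 and 10.0 FPKM. At chr4:177452776-177453281 the values were 1.9, 2.38 and 2.28 FPKM in WT and 3.82, 4.33 and 5.8 FPKM in the mutant. Every mutant library was above every WT library at these 4 sites. The other member among the 5 largest rises, chr4:177389190-177390062, was higher in the mutant within each treatment. There the genotypes overlapped across treatments, since mutant CON held 8.89 FPKM and WT FSK 28.0 FPKM.

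Along the region the difference was not even. Taken in runs of 50 neighbouring members called in all 6 libraries, the median in CON was -0.68, -1.15, -0.63, -1.02, -1.0, -0.91, -0.82 and -0.80 from the start of the region to its end. The 6 runs of 50 just before the region lay between -0.095 and 0.18. In 1-Mb windows with at least 20 such peaks, the 9 windows inside the region ran from -1.22 to -0.31 in CON and 107 windows before it from -0.38 to 0.40. In Ex-4 the windows inside ran from -1.17 to -0.46 and those before from -0.57 to 0.45, and in FSK they ran from -1.39 to -0.47 and from -0.67 to 0.25. The mildest window inside was thus not set apart from the lowest before the region in any of the 3 treatments. The mildest window of the region was its first, which holds 31 such members.

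**Figure D4:**
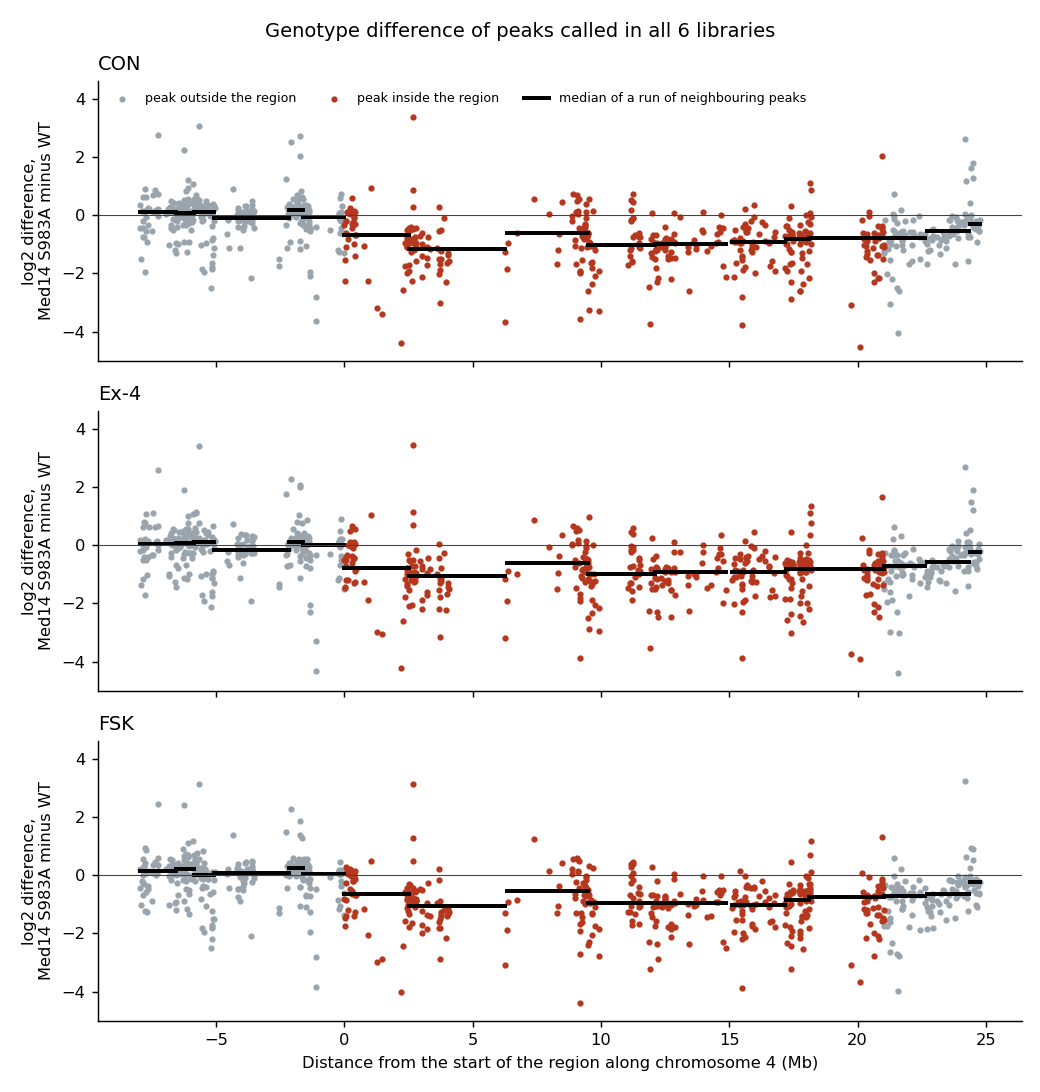
Difference of Med14 S983A minus WT on the scale of log2(FPKM + 0.5), vertical, against distance from the start of the region in Mb, horizontal, for peaks called in all 6 libraries, inside the region (red) and outside it (grey), in CON, Ex-4 and FSK, with 1 library per genotype and panel. Black bars are medians of runs of 50 neighbouring peaks (19 in the last run); in CON they lie between -0.095 and 0.18 before the region, between -1.15 and -0.63 inside it, and between -0.78 and -0.29 after it.

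The first 0.45 Mb of the region was mixed. Its 29 members called in all 6 libraries had a median difference of -0.30 in CON, -0.43 in Ex-4 and -0.26 in FSK, and 9 of them were not below 0 in CON. Here lies the second strongest member of the region, whose level was alike in both genotypes. From 0.45 to 2.4 Mb only 9 of 102 members were called in all 6 libraries, and their median difference was -2.26 in CON, beside a median FPKM ratio of 0.128. From 2.4 to 6.9 Mb the 65 such members had a median of -1.09. A second mild stretch ran from 6.9 to 9.1 Mb, where 15 of 98 members were called in all 6 libraries, with a median of -0.033 in CON, 0.016 in Ex-4 and 0.045 in FSK. In it, chr4:167753449-167755008 stood at 29.5, 30.6 and 25.7 FPKM in WT and 40.7, 38.9 and 34.1 FPKM in Med14 S983A. The remaining 282 members, up to the end of the region, had a median of -0.90 in CON. These limits were drawn after the values were seen, and in the 2 thinly filled stretches the medians rest on fewer than 20 members called in all 6 libraries.

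Members next to each other were only loosely alike. Pearson's r between the CON differences of neighbouring members was 0.32 over 399 pairs and 0.35 over the 116 pairs within 5 kb, and neighbours differed by a median of 0.52 on the log2 scale. On the rest of chromosome 4, r was 0.18 over 4917 pairs with a median gap of 0.49. These values describe peaks that share libraries and local sequence.

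The bounds were not sharp in every treatment. Of the 3 peaks called in all 6 libraries just before the start, the differences in CON were 0.31, -0.61 and -1.29, and of the first 3 inside they were -0.35, -1.53 and -2.25. The last 20 such peaks before the start had a median of -0.13 in CON, -0.041 in Ex-4 and 0.032 in FSK, and the first 20 inside -0.26, -0.43 and -0.36. The medians thus lay closer together across the start in CON than in Ex-4 and FSK. At the other end, the last 3 members stood at -1.50, -1.10 and -1.04 and the next 3 peaks at -1.29, -1.25 and -0.16. The last 20 inside and the first 20 outside had medians of -0.79 and -0.86 in CON, -0.71 and -0.73 in Ex-4 and -0.75 and -0.73 in FSK. The lower levels thus went on past the end: the 119 peaks called in all 6 libraries between the region and the last peak of the chromosome, which ends at base 184220745, had a median of -0.60 in CON, -0.61 in Ex-4 and -0.62 in FSK. By runs, these peaks went from -0.78 through -0.56 to -0.29 toward the chromosome end.

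The response to stimulation was not used to choose the region. FSK changed the level of the typical member little, with a median over the 400 members of -0.15 (WT) and -0.10 (Med14 S983A), beside -0.15 for both on the rest of chromosome 4. FSK raised 26 members at least 2-fold in WT (6.5%, against 5.94% of all tested peaks called in all 6) and 25 in the mutant (6.25%, against 4.56%). It raised 17 members at least 2-fold in both genotypes (4.25%, against 3.63%), and lowered 6 in WT (1.5%, against 3.65%) and 13 in the mutant (3.25%, against 4.28%). On the rest of chromosome 4, 6.79% of such peaks were raised in WT, 5.29% in the mutant and 4.33% in both. The lowered shares there were 4.55% in WT and 5.27% in the mutant. The raised shares of the region were thus near those of other peaks and the lowered shares below them. All rest on counts of 26 or fewer, and nothing is read from them. Ex-4 raised 5 members in WT and 5 in the mutant (1.25% each, against 0.448% and 0.634%), 4 of them shared (1%, against 0.165%). The median change with Ex-4 was -0.019 in WT and -0.0029 in the mutant.

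The FSK response of a member was much alike in the 2 genotypes, and the Ex-4 response less so. Between the 2 genotypes, Pearson's r of the FSK changes was 0.86 over the 400 members, the same as the 0.86 over such peaks on the rest of chromosome 4, given as a description. For the Ex-4 changes r was 0.60 over the members and 0.50 over the same other peaks. Of the 34 members raised at least 2-fold by FSK in either genotype, 32 rose by at least 0.5 on the log2 scale in both, beside 338 of 381 such peaks on the rest of chromosome 4. The 26 members raised in WT, a set chosen for its WT change, had a median of 1.57 in that genotype beside 1.08 in Med14 S983A. Over the 334 peaks chosen in the same way on the rest of chromosome 4, these medians were 1.45 and 1.17. No test of the difference between genotypes was possible with 1 library each.

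**Figure D5:**
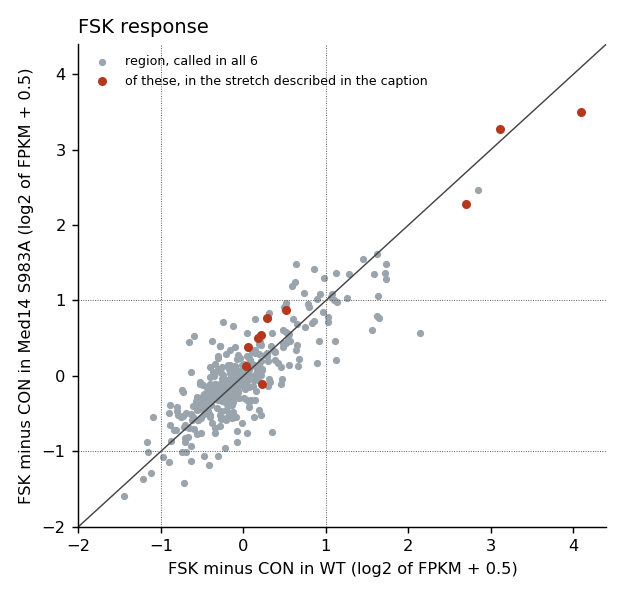
Change with FSK (FSK minus CON, log2(FPKM + 0.5)) in WT, horizontal, and in Med14 S983A, vertical, for the 400 members called in all 6 libraries, with the 10 of them in an 86.3-kb stretch that holds 3 of the 5 largest changes in red; dotted lines mark 2-fold changes and the solid line equal change, and each change compares 1 library with 1 library. Points follow the solid line, with Pearson's r of 0.86.

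Several sites opened with stimulation in both genotypes from a lower CON level in the mutant. At chr4:159403085-159403583 the level went from 3.76 FPKM in CON to 13.5 in Ex-4 and 30.0 in FSK in WT, and from 1.9 to 5.66 and 12.7 FPKM in the mutant. FSK raised it 7.98-fold in WT and 6.7-fold in Med14 S983A. At chr4:168762237-168763288 the levels were 18.9, 42.8 and 59.1 FPKM in WT and 12.1, 27.7 and 37.8 FPKM in the mutant, a rise with FSK of 3.13-fold and 3.14-fold. At both sites the order CON, Ex-4, FSK was the same in each genotype and the mutant was lower in every treatment. At chr4:168454020-168454658 WT went from 11.6 to 20.7 and 36.6 FPKM and the mutant from 0.525 to 0.948 and 1.27 FPKM. As ratios of FPKM, a 3.17-fold rise with FSK in WT stood beside a 2.42-fold rise in the mutant. The mutant CON value rests on 45 reads. On the scale log2(FPKM + 0.5) the changes were 1.62 and 0.79, so the mutant did not pass the 2-fold rule. At chr4:174770519-174771308 the rise was from 16.7 to 29.8 and 36.3 FPKM in WT and from 0.755 to 1.58 and 2.02 FPKM in the mutant.

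Of the 5 members called in all 6 libraries with the largest FSK change, averaged over the genotypes on the scale of log2(FPKM + 0.5), 3 lay together. The 86.3-kb stretch chr4:177368510-177454801, picked out after its values were seen, held 31 members, of which 30 were called in WT FSK and 18 in WT CON. In Med14 S983A, 20 were called in FSK and 10 in CON, and 6 members were called in both FSK libraries and in neither CON library. Of its 26 tested members, 16 rose at least 2-fold with FSK in WT and 12 in the mutant, where 20.4% and 17.4% of all tested peaks did. The stretch was chosen for such changes, so nothing is read from these counts. By the same average over genotypes, the largest change was at chr4:177415968-177416391, which went from 2.75 FPKM in CON to 7.68 in Ex-4 and 54.6 in FSK in WT, a 19.9-fold rise with FSK, and from 2.94 to 9.93 and 38.2 FPKM in Med14 S983A, a 13.0-fold rise. Its CON levels were alike in the 2 genotypes, and its Poisson intervals in CON overlapped, at 2.36 to 3.18 and 2.51 to 3.42 FPKM.

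Other members of that stretch rose in the same way. The broad peak chr4:177447330-177449534, which rose more as a ratio of FPKM, by 30.8-fold in WT and 41.1-fold in the mutant from CON levels near 0, was at 0.171, 0.149 and 5.27 FPKM in WT CON, Ex-4 and FSK and at 0.138, 1.15 and 5.67 FPKM in the mutant, so that Ex-4 moved it in the mutant library and not in the WT library. At chr4:177389190-177390062 the level went from 3.91 to 11.5 and 28.0 FPKM in WT and from 8.89 to 25.5 and 45.1 FPKM in the mutant, which was higher than WT in every treatment. Its neighbours chr4:177387573-177388195 and chr4:177385941-177386198 reached 33.6 and 26.7 FPKM in WT FSK and were listed at 0 in all 3 mutant libraries. A site that was higher in the mutant thus stood within a few kb of sites that were called only in WT. The steady strong member chr4:177402117-177403617 changed less, at 45.2, 46.4 and 51.0 FPKM in WT and 29.0, 30.7 and 41.2 FPKM in the mutant.

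Few members closed with stimulation. The largest drop with FSK was at chr4:170466356-170466624, where WT went from 16.2 to 14.3 and 5.62 FPKM in CON, Ex-4 and FSK and Med14 S983A from 5.08 to 3.52 and 1.35 FPKM. At chr4:174446738-174447124 WT went from 7.71 to 6.56 and 3.04 FPKM and the mutant from 4.03 to 2.8 and 1.26 FPKM. At chr4:161857662-161858198 the WT levels were 4.4, 3.57 and 1.75 FPKM and the mutant levels 3.17, 1.28 and 0.996 FPKM. All 3 were lower with FSK than with Ex-4 and lower with Ex-4 than in CON, in each genotype.

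Counting every tested member, FSK raised 172 of 913 at least 2-fold in WT (18.8%, against 20.4% of all tested peaks) and 130 in Med14 S983A (14.2%, against 17.4%), and 94 in both (10.3%, against 13.4%). Of these, 110 in WT and 102 in the mutant were listed at 0 in CON, so most of them were called after FSK and not before. WT FSK also held 1.66 times as many reads in peaks as WT CON, and its part in the newly called members was not tested.

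The number per Mb and the length of the members were set beside those of other peaks of the chromosome. Those called in all 6 libraries numbered 19 per Mb in the region and 30.1 per Mb before it, while merged peaks of any kind numbered 68.8 and 78.2 per Mb. The share called in all 6 libraries was 27.6% against 38.4% on the rest of chromosome 4. This share and the number per Mb called in all 6 libraries depend on the mutant calls and so on what chose the region. The median length of a member called in all 6 libraries was 648.5 bp, against 564 bp on the rest of the chromosome. That of the other members was 217 bp against 186 bp. Peaks called in all 6 libraries after the region had a median of 644 bp, so this length was not particular to the region. These lengths also depend on which peaks were called in the mutant. The genotype difference varied little with length, with medians of -0.76, -0.96, -0.96 and -0.88 in CON in 4 groups of the 400 members from the shortest to the longest.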

How the data were processed

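Trim Galore served the authors for trimming and bwa mem for alignment to rn6. Weak alignments, PCR copies and chrM were taken out by samtools before macs2 was run on each library, and the resulting lists were merged. The deposited values are FPKM from HOMER, relative in effect to the reads in a library's own peaks, and 0 where the library's own list lacks the peak. The depth of a library was worked out from the step size of its low FPKM values. It is not known whether a step is a read or a read end.

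From these values, log2(FPKM + 0.5) was compared between libraries for merged peaks that averaged 1 FPKM or more, outside the mitochondrial chromosome, with a 2-fold difference as size rule, in Python 3.11.15 with pandas 2.3.3 and scipy 1.17.1. Functions were tested on simulated data. Named peaks are the 5 of highest mean level, the 5 lowest and 5 highest in genotype difference, the 5 largest and 3 smallest in FSK change, the 3 strongest called in 1 genotype only, and 3 on each side of both bounds. The region, lists and alternatives were chosen with earlier results of these data known. Sequences of the peaks and the genes near them were not analysed here.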

Additional observations from a re-analysis of the deposited data

Results flagged for a closer look

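A single member of the 913 tested moved at least 2-fold with FSK in opposite directions in the 2 genotypes. At chr4:174299555-174299683 WT held 0, 2.56 and 3.08 FPKM in CON, Ex-4 and FSK, and Med14 S983A held 2.56, 0 and 0 FPKM. On the scale log2(FPKM + 0.5) WT moved by 2.84 with FSK and the mutant by -2.61, a difference of -5.45. It was flagged because the 2 genotypes moved in opposite directions, and the difference was not tested. Each 0 means that the peak was not in that library's list, so both changes rest on calls. Over all 146906 tested peaks, 536 rose in WT and fell in the mutant by the same rule, and 212 did the reverse. On the rest of chromosome 4 these counts were 32 and 12 of 8513. Such peaks were thus not particular to the region.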

How the results depend on the processing

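No paired analysis was possible because there was a single library of every genotype and treatment, and for the same reason no replicate could be left out. The median genotype difference stayed below 0 in CON, Ex-4 and FSK under all 11 alternatives, from -1.43 to -0.74 in CON, -1.38 to -0.76 in Ex-4 and -1.63 to -0.71 in FSK. The region was chosen for this difference, so its stable sign is no support for it. The values at the low end came from including members not called in all 6 libraries (-1.43, -1.38 and -1.63), among which zeros count. With libraries centred on the median the values were -0.77, -0.76 and -0.71, and quantile normalization gave -0.74 in CON and -0.77 in Ex-4. These scalings also moved the median of all peaks called in all 6 libraries in CON, from 0.051 to 0.17 and 0.14, and relative to it the region stood at -0.94 as deposited, -0.94 centred and -0.87 after quantile normalization. Extending the region to the chromosome end, an alternative added after seeing the data, gave -0.81 in CON and -0.79 in Ex-4.

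The median FSK change in WT was -0.095 with centring, -0.20 with quantile normalization, -0.18 up to the midpoint of the region and -0.095 beyond it. In Med14 S983A it was 0.0071 with centring, a change of sign, -0.24 with quantile normalization and 0 over all tested members. The median Ex-4 change in Med14 S983A was -0.043 with quantile normalization, and its sign turned beyond the midpoint (0.019) and without the first 1 Mb (0.0049, added after seeing the data). The count of members at least 2-fold lower in CON was 268 with a mean of at least 3 FPKM, 164 among members called in all 6 libraries, 249 before the midpoint and 285 beyond it, each from fewer members than the 913. The other 66 values stayed within the interval of the median or within 1.5 times the count and kept their direction, except that the median Ex-4 change in Med14 S983A was 0 over all tested members.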
